A study of Homo sapiens with 96 samples.

Results

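Genes of polyamine metabolism were followed in hTERT-RPE1, a telomerase-immortalised human cell line established from retinal pigment epithelium. The members were chosen by name in the expression tables, as 9 genes: the synthetic enzymes ODC1, AMD1, SRM and SMS, the regulators OAZ1, OAZ2 and AZIN1, and the catabolic enzymes SAT1 and SMOX. Of these 9 genes, 8 had a row in each of the 10 tables, of 13469 gene names shared by all 10, and OAZ1 was not analysed here. On GRCh38.p14, RefSeq places ODC1 at chr2:10439968-10448327, AMD1 at chr6:110814617-110895713, SRM at chr1:11054589-11060018, SMS at chrX:21940709-21994837, OAZ2 at chr15:64687574-64703281, SAT1 at chrX:23783173-23786210 and SMOX at chr20:4148828-4187727. The list was drawn up with the difference of SAT1 between synchronised and asynchronous cells already known, so for the members that contrast is described and not tested.

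In the first part of the study, nascent and input RNA of whole cells and of nuclei was sequenced from cells in windows T0-2, T2-4, T4-6, T6-8 and T8-10 of S phase and from asynchronous cells. Each window and the asynchronous state had 2 libraries per kind of RNA, so that 10 window libraries stood against 2 asynchronous ones in each of 4 tables. Synchronised cells had been held with 400 uM mimosine, an iron chelator that stops cells before S phase, for 22 h. The second part sequenced strand-specific RNA from cells given 130 to 150 pmol of LNA GapmeRs, oligonucleotides that pair with an RNA and have RNase H cut it, against the long non-coding RNAs LINC00704, LUCAT1 or MIAT, beside cells given a control LNA. Knockdown and control cells of points S0, S2, S4 and S6 had 2 libraries each, and asynchronous cells had 3 knockdown libraries per target and 2 control libraries labelled Control Asynchronous. The sources used here give no unit for the window and point numbers. Nothing states that the libraries of a group are from different cultures, and the p-values then reflect only how these libraries scatter.

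Polyamines are small positively charged molecules that bind RNA and DNA and are needed for growth. ODC1 makes putrescine from ornithine, and SRM and SMS convert it to spermidine and spermine with aminopropyl groups that AMD1 provides from S-adenosylmethionine. Antizymes such as OAZ2 bind ODC1 and send it to the proteasome, and AZIN1 is an inactive ODC1 relative that captures antizyme. SAT1 acetylates spermidine and spermine for export or oxidation, and SMOX oxidises spermine directly. Spermidine is also the source of hypusine, a modified lysine of EIF5A made by DHPS and DOHH, and mimosine is known to inhibit the iron enzyme DOHH.

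Values are RPKM, read counts scaled to gene length and library size. The gene lengths in the tables were mostly those of the whole span of a gene with its introns (median ratio of length to RefSeq span 1.0004 over 14025 genes, of which 75.4% lay within 10%). SMOX is an exception, with a length of 66768 bases in the tables that is longer than the RefSeq span given above. Levels are therefore compared between samples and not between genes. Depth recovered from the values was 6.39 to 23.6 M reads in the whole-cell nascent table and 26.4 to 50.5 M reads across the asynchronous knockdown tables. In the latter the library size used for scaling was not the plain number of reads. Asynchronous control library 1 had 42.1 M recovered reads, but sizes of 39.8, 38.6 and 40.0 M in the LINC00704, LUCAT1 and MIAT tables. The least covered members were SRM in nuclear input RNA, with 40 to 213 reads per library, and SRM in nuclear nascent RNA, with 67 to 326. Summed over 11 markers of retinal pigment epithelium, window libraries held 103.2 to 248.2 RPKM and asynchronous ones 223.3 to 247.5 RPKM in nuclear nascent RNA, while RPE65, a defining marker, reached at most 0.215 RPKM there. VIM, which many cell types express, alone had 94.0 to 232.4 RPKM in that table. The summed ranges overlapped in the other 3 window tables too. A list of 8 markers of other cell types summed to at most 6.30 RPKM except in a window library of whole-cell nascent RNA at 73.0 RPKM, of which the globin gene HBB made up 72.4 RPKM. The part of these markers in the results was not tested. The targeted RNAs were lower in their own knockdowns: MANCR, the files' name for LINC00704, by a log2 difference of -1.51 ± 0.16 (SE; limma adjusted p = 0.00256) and LUCAT1 by -0.98 ± 0.14 (adjusted p = 0.00128) at points S0 to S6, while MIAT, too low to be tested, had 0.0718 to 0.221 RPKM in its knockdown and 0.243 to 0.323 RPKM in control libraries.

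The whole-cell input libraries stood apart from the other 3 kinds of RNA. Their median residual SD across genes was 0.52 on the log2 scale, against 0.35 in whole-cell nascent, 0.27 in nuclear nascent and 0.29 in nuclear input RNA, and window libraries numbered 1 and 2 lay on opposite sides of asynchronous cells for 5 members. Window differences from that table are therefore given by library number as well.

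The DNA before the start of 4 members is shown, as nascent RNA follows transcription: SAT1 and SRM, whose levels differed most between window and asynchronous libraries and in opposite directions, ODC1, and AMD1, which changed in a knockdown. Each sequence holds the 250 bases before an annotated start, 5′ to 3′ on the gene's strand, from RefSeq on GRCh38.p14. Capitals mark 3 motifs searched on both strands: the E-box CACGTG, the GC box GGGCGG and the TATA box TATAAA. The 4 windows are chrX:23782923-23783172 on the + strand, chr1:11060019-11060268 on the - strand, chr2:10448328-10448577 on the - strand and chr6:110814367-110814616 on the + strand.
SAT1: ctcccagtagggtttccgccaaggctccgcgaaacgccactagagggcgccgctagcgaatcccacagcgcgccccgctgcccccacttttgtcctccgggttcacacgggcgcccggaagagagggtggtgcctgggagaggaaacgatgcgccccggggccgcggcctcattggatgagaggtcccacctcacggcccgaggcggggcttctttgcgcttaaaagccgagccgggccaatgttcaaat
SRM: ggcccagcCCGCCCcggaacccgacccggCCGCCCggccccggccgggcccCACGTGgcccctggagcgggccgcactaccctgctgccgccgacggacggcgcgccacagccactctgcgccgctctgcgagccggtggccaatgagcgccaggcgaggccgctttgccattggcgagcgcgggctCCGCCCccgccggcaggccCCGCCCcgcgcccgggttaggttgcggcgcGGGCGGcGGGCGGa
ODC1: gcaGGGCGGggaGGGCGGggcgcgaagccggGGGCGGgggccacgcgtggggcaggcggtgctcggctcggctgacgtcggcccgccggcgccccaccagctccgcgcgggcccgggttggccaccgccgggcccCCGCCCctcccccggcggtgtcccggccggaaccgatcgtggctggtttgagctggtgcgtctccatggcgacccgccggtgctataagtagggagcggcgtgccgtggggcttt
AMD1: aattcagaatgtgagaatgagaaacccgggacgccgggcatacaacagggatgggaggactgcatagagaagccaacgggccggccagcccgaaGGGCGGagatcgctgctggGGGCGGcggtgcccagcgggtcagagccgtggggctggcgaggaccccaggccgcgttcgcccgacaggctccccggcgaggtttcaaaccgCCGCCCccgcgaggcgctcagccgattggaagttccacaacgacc

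The SAT1 window held none of the 3 motifs. In the SRM window there was an E-box 199 bases before the start and 6 GC boxes, the nearest 7 bases before it. ODC1 had 4 GC boxes, 115 to 247 bases before the start, and AMD1 had 3, at 45, 137 and 156 bases. RefSeq lists other starts for these last 2 genes, not printed here. The window of another ODC1 start held an E-box 29 bases before it and 4 GC boxes, and those of 2 further AMD1 starts held a GC box at 23 or 24 bases. No printed matches overlap each other. Across 35116 promoter windows of the same length, 6.345% held the E-box, 42.6% the GC box and 10.7% the TATA box. Such matches are a description of the letters only.

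The largest difference of any member between windows and asynchronous cells was that of SAT1, which was higher in the windows in all 4 kinds of RNA. In whole-cell nascent RNA SAT1 had 23.99 and 23.8 RPKM at T0-2, 20.6 and 22.6 at T2-4, 22.9 and 33.5 at T4-6, 28.8 and 24.2 at T6-8 and 22.2 and 31.2 at T8-10, against 5.42 and 7.95 RPKM in asynchronous cells. Every one of the 10 window libraries lay above both asynchronous ones, with means of 25.4 and 6.68 RPKM. The log2 difference was 1.89 ± 0.27 (SE). Over all 10096 genes tested in this table, 0.406% passed an adjusted p of 0.05 in this contrast.

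Nuclear RNA showed the same order. In nuclear nascent RNA SAT1 had 69.7 and 38.7 RPKM at T0-2, 20.4 and 23.1 at T2-4, 40.2 and 28.4 at T4-6, 26.7 and 18.3 at T6-8 and 25.3 and 22.4 at T8-10, against 9.70 and 4.18 RPKM in asynchronous cells. In nuclear input RNA SAT1 had 53.9 and 29.5 RPKM at T0-2, 36.5 and 22.1 at T2-4, 44.4 and 42.5 at T4-6, 36.8 and 34.0 at T6-8 and 37.5 and 23.3 at T8-10, against 8.53 and 5.51 RPKM in asynchronous cells. No window library overlapped an asynchronous one in either table, and the highest SAT1 value in both was a T0-2 library. The share of all genes without overlap was not computed for any table. By the adjusted p, a different measure, 4.50% and 4.57% of all genes passed the threshold in this contrast. The log2 differences were 2.13 ± 0.35 in nuclear nascent and 2.303 ± 0.31 in nuclear input RNA. Leaving out asynchronous library 2 or 1 gave 1.55 and 2.72 in nuclear nascent RNA. In bulk RNA, more cells with a transcript and more transcript per cell cannot be told apart.

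Whole-cell input RNA gave SAT1 values that overlapped. SAT1 had 24.005 and 15.9 RPKM at T0-2, 24.7 and 11.4 at T2-4, 24.1 and 7.93 at T4-6, 36.9 and 7.49 at T6-8 and 31.4 and 11.8 at T8-10, against 7.04 and 8.49 RPKM in asynchronous cells. The window libraries numbered 1 all exceeded both asynchronous libraries, and 2 of the 5 numbered 2 fell below asynchronous library 2. The log2 difference was 1.12 ± 0.68 over all libraries, 1.94 within number 1 and 0.30 within number 2. Of all 9825 genes tested, 0.0305% passed the threshold.

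**Figure D1:**
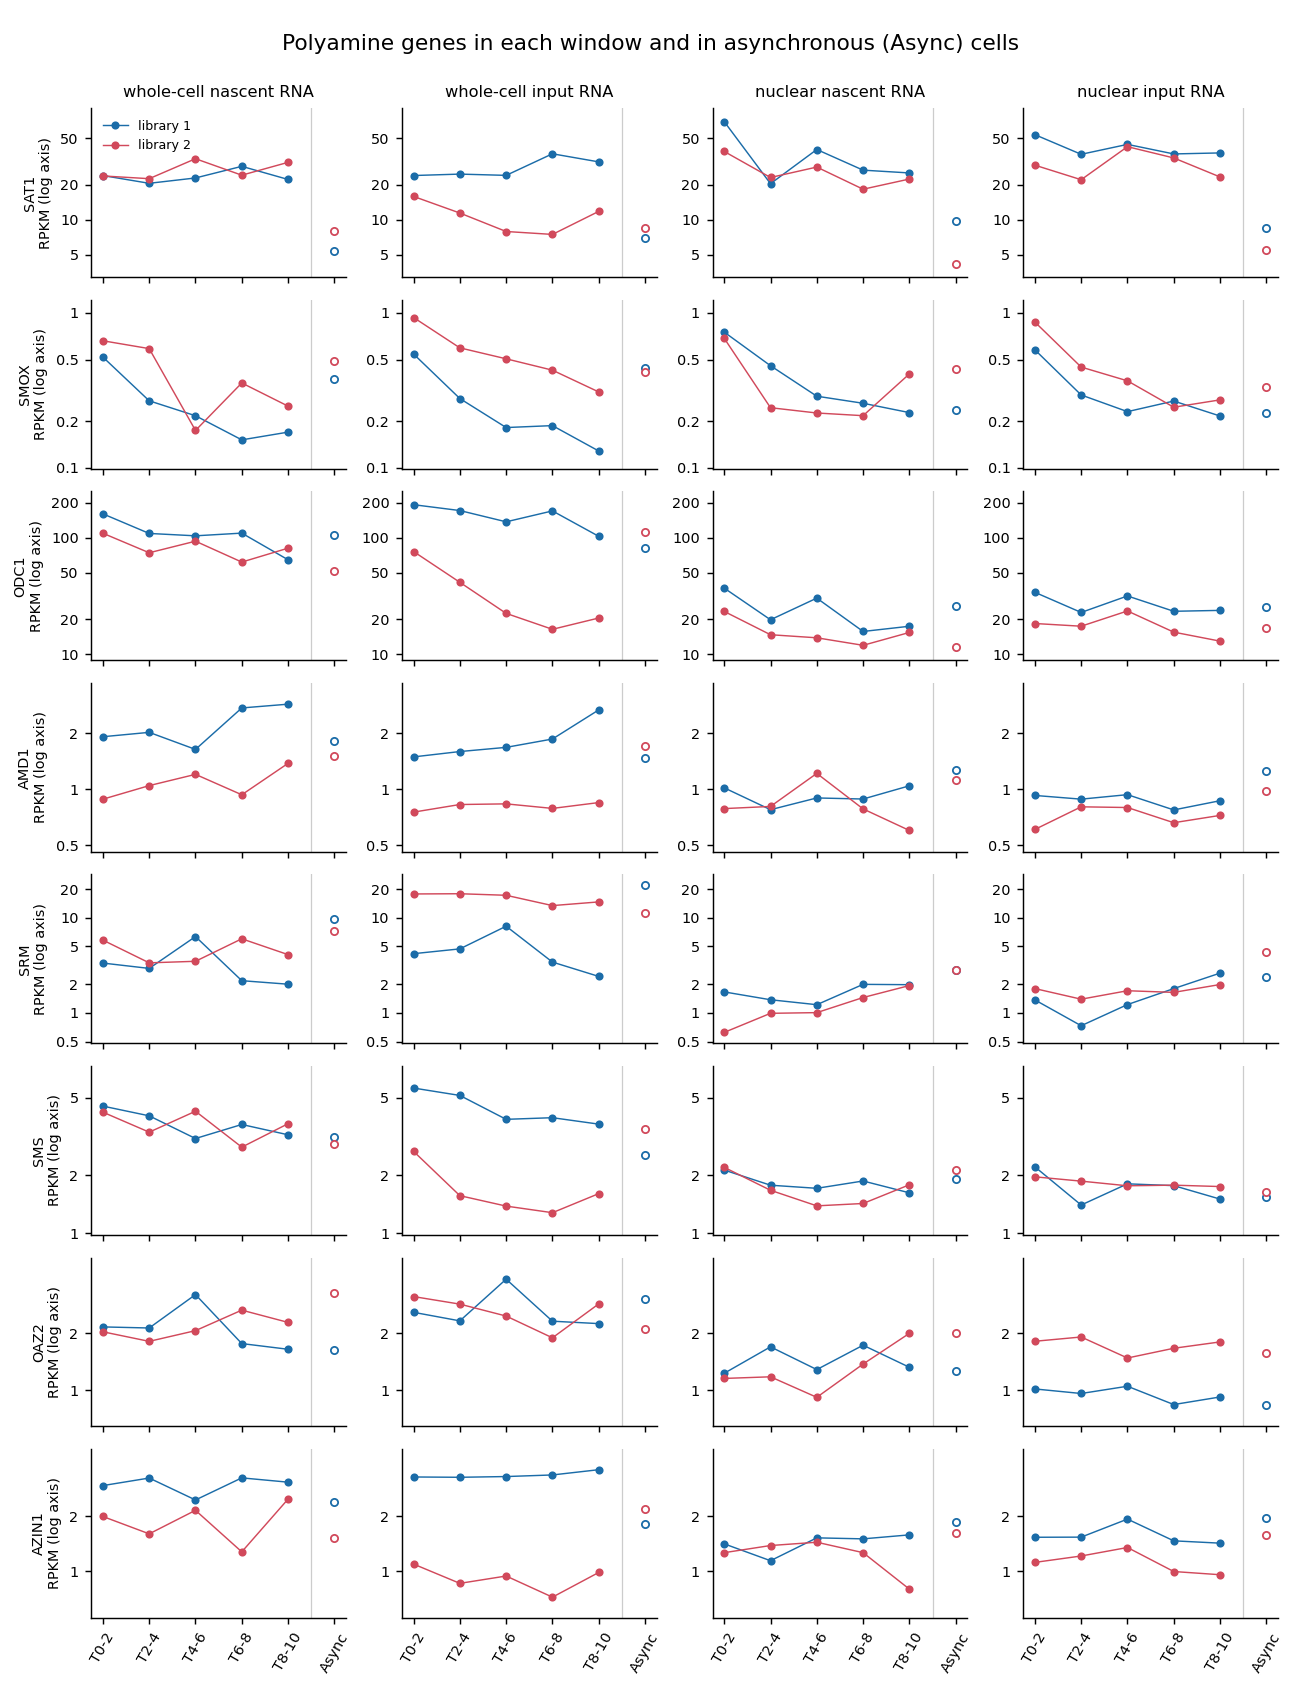
RPKM (log axis) of the 8 polyamine genes in each library of 4 kinds of RNA, by window with asynchronous cells (Async, open circles) at the right of each panel; blue and red are the libraries numbered 1 and 2. SAT1 window libraries lie above both asynchronous ones in 3 of the 4 columns, SMOX is highest at T0-2 in every series, and in whole-cell input RNA the libraries numbered 1 and 2 run apart for ODC1, SRM, SMS, AMD1 and AZIN1.

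Among the synthetic enzymes, spermidine synthase SRM had a fitted difference below 0 in every table. In whole-cell input RNA its sign differed by library number. In whole-cell nascent RNA SRM had 3.34 and 5.81 RPKM at T0-2, 2.93 and 3.35 at T2-4, 6.33 and 3.48 at T4-6, 2.18 and 6.00 at T6-8 and 2.00 and 4.09 at T8-10, against 9.65 and 7.23 RPKM in asynchronous cells. In nuclear nascent RNA SRM had 1.66 and 0.623 RPKM at T0-2, 1.37 and 0.989 at T2-4, 1.22 and 1.01 at T4-6, 1.99 and 1.45 at T6-8 and 1.98 and 1.94 at T8-10, against 2.84 RPKM in both asynchronous libraries. All window libraries lay below both asynchronous ones in these 2 tables. The log2 differences of SRM were -1.13 ± 0.40 in whole-cell nascent and -0.94 ± 0.25 in nuclear nascent RNA.

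In nuclear input RNA SRM averaged 1.63 ± 0.50 RPKM in the windows and 3.36 ± 1.41 RPKM in asynchronous cells (SD, n = 10 and 2), a log2 difference of -0.94 ± 0.26. A single T8-10 library at 2.62 RPKM exceeded the lower asynchronous library at 2.36 RPKM. The difference was -1.35 without asynchronous library 1 and -0.53 without asynchronous library 2. Same-numbered libraries varied together in nuclear input RNA, and the SRM difference was -0.63 within number 1 and -1.24 within number 2. For whole-cell input RNA the log2 difference of SRM was -0.90 ± 0.87, and it was -2.31 within libraries numbered 1 and 0.51 within those numbered 2. The SRM direction there differed by library number.

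AMD1, which supplies the aminopropyl donor, was lower in the windows in nuclear RNA by less. In nuclear input RNA AMD1 had 0.928 and 0.610 RPKM at T0-2, 0.886 and 0.806 at T2-4, 0.936 and 0.799 at T4-6, 0.776 and 0.662 at T6-8 and 0.869 and 0.725 at T8-10, against 1.25 and 0.979 RPKM in asynchronous cells. The 10 window libraries lay below both asynchronous ones, at a log2 difference of -0.38 ± 0.15, which was -0.23 without asynchronous library 1 and -0.52 without asynchronous library 2. Within libraries numbered 1 and 2 there it was -0.41 and -0.35. In nuclear nascent RNA the difference of AMD1 was -0.36 ± 0.18, with a T4-6 library at 1.22 RPKM above the lower asynchronous one at 1.12 RPKM. The whole-cell nascent level of AMD1 averaged 1.66 RPKM in both the windows and asynchronous cells. For whole-cell input RNA the AMD1 difference was 0.27 within libraries numbered 1 and -0.89 within those numbered 2.

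ODC1, the first enzyme of the pathway, overlapped between windows and asynchronous cells in all 4 tables. It averaged 96.7 ± 28.9 RPKM in the windows and 78.2 ± 37.1 RPKM in asynchronous cells in whole-cell nascent RNA, and 22.4 ± 6.69 and 21.1 ± 6.07 RPKM in nuclear input RNA (SD, n = 10 and 2). The log2 differences of ODC1 were 0.34 ± 0.35 in whole-cell nascent, 0.11 ± 0.37 in nuclear nascent and 0.06 ± 0.33 in nuclear input RNA. Their sign turned with which asynchronous library was left out, over ranges from -0.17 to 0.84, from -0.46 to 0.68 and from -0.23 to 0.36. In nuclear input RNA, where same-numbered libraries varied together, the ODC1 difference was 0.08 within number 1 and 0.04 within number 2. In whole-cell input RNA it was 0.87 within libraries numbered 1, at 103 to 192 RPKM, and -1.89 within those numbered 2, at 16.4 to 76.2 RPKM. SMS, which makes spermine, differed by 0.25 ± 0.21, -0.18 ± 0.14 and 0.14 ± 0.13 in the other 3 tables in that order, and the nuclear nascent value was -0.25 or -0.11 without 1 asynchronous library. In whole-cell input RNA SMS was at 0.74 within number 1 and -0.97 within number 2.

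Of the regulators, AZIN1, the antizyme inhibitor, averaged 1.33 ± 0.23 RPKM in the windows and 1.74 ± 0.17 RPKM in asynchronous cells in nuclear nascent RNA (SD, n = 10 and 2), without overlap, at a log2 difference of -0.34 ± 0.20. In nuclear input RNA the difference of AZIN1 was -0.35 ± 0.21 and the libraries overlapped, with -0.22 without asynchronous library 1 and -0.48 without asynchronous library 2. Within libraries numbered 1 and 2 there it was -0.27 and -0.43, with all 5 windows below asynchronous cells in each. The whole-cell nascent difference of AZIN1 was 0.27 ± 0.34, and -0.02 or 0.56 without 1 asynchronous library. In whole-cell input RNA AZIN1 was at 0.81 within libraries numbered 1, all 5 windows above asynchronous cells, and at -1.08 within those numbered 2, all 5 below. Reads of AZIN1 and its antisense gene AZIN1-AS1 may not be separable in these 4 tables, for which strand use is not stated. The antizyme OAZ2 differed by -0.11 ± 0.27, 0.04 ± 0.26, -0.20 ± 0.21 and 0.13 ± 0.35, and SMOX by -0.27 ± 0.27, -0.13 ± 0.32, 0.07 ± 0.22 and 0.20 ± 0.18, in whole-cell nascent, whole-cell input, nuclear nascent and nuclear input RNA. The sign of OAZ2 turned in all 4 tables with which asynchronous library was left out, over ranges as wide as -0.56 to 0.35 in whole-cell nascent RNA, and that of SMOX turned in nuclear nascent RNA, at -0.18 and 0.31. In nuclear input RNA, where same-numbered libraries varied together, OAZ2 was at 0.15 within number 1 and 0.12 within number 2. Leaving out 1 asynchronous library there ignores this pairing. With the replicate number as a block, the SE there was 0.09 for OAZ2 and 0.13 for ODC1. It was 0.08 for both AZIN1 and AMD1, 0.20 for SRM, 0.17 for SAT1, 0.10 for SMS and 0.11 for SMOX. In whole-cell input RNA OAZ2 was at -0.21 within number 1 and 0.28 within number 2, and SMOX at -0.48 and 0.23. Over the 8 members the median difference was 0.08, -0.13, -0.19 and 0.096 in the 4 tables in the same order, beside 0.05, -0.08, -0.01 and 0.004 for all genes.

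**Figure D2:**
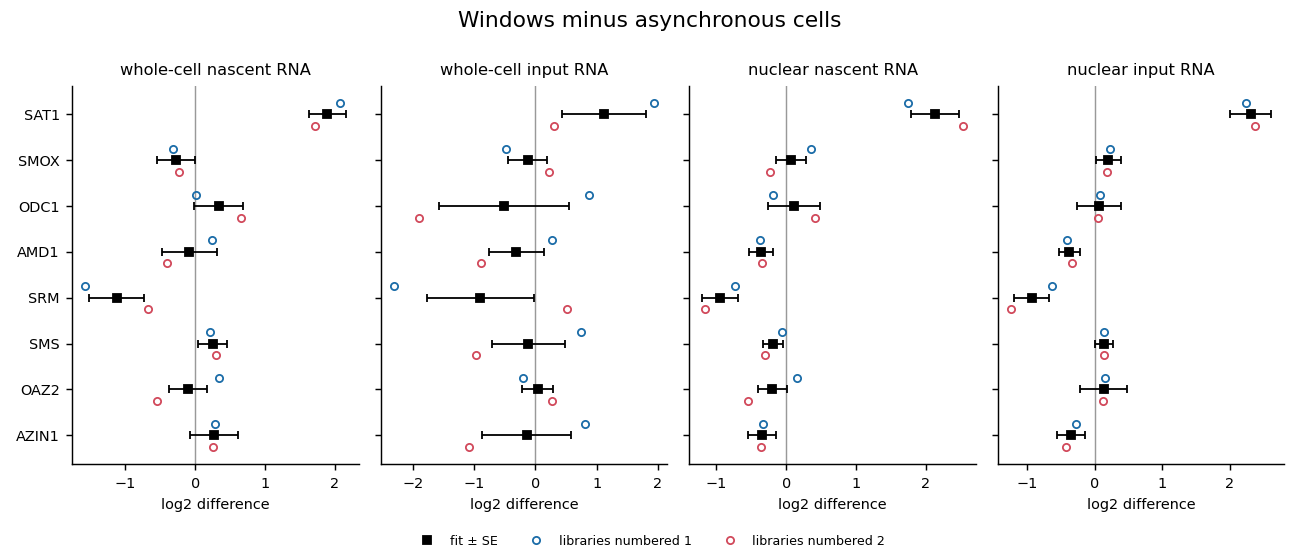
Log2 difference of the 5 windows minus asynchronous cells for the 8 genes in 4 kinds of RNA; black squares with bars are the fit ± SE over 10 and 2 libraries, and open circles are the difference within libraries numbered 1 (blue) and 2 (red). SAT1 lies to the right at 1.12 to 2.303 and SRM to the left at -1.13 to -0.90, while in whole-cell input RNA blue and red circles fall on opposite sides of 0 for ODC1, AMD1, SRM, SMS and AZIN1 with every window on that side.

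Late and early S phase were compared next, as T8-10 minus T0-2, which was tested. Groups of 2 libraries often lie apart without any real difference, so lack of overlap alone says little here. SMOX, the spermine oxidase, was lower at T8-10 in all 4 tables without overlap. In whole-cell nascent RNA SMOX had 0.170 and 0.2502 RPKM at T8-10, against 0.519 and 0.661 RPKM at T0-2, and in whole-cell input RNA it had 0.128 and 0.309 RPKM at T8-10, against 0.543 and 0.934 RPKM at T0-2. In nuclear nascent RNA SMOX had 0.227 and 0.404 RPKM at T8-10, against 0.752 and 0.686 RPKM at T0-2, and in nuclear input RNA it had 0.216 and 0.275 RPKM at T8-10, against 0.578 and 0.874 RPKM at T0-2. In both nuclear tables the T0-2 libraries were the 2 at or above 0.5 RPKM, and in whole-cell nascent RNA they were 2 of 3, so there SMOX entered the test through the group where it was high. Its values in these 3 tables are therefore a description, and no p-value of SMOX in them is used as support. T0-2 was the highest window for SMOX in 8 of 8 series of libraries with 1 number in 1 table.

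The SMOX difference did not pass the test in any table. It was -0.87 ± 0.35 in whole-cell nascent (limma adjusted p = 0.581), -1.08 ± 0.42 in whole-cell input (adjusted p = 1), -0.79 ± 0.28 in nuclear nascent (adjusted p = 0.174) and -0.96 ± 0.24 in nuclear input RNA (adjusted p = 0.148; SE, 2 and 2 libraries throughout). Without the filter on low values the adjusted p in nuclear input RNA was 0.14. Within whole-cell input libraries numbered 1 and 2 the SMOX difference was -1.07 and -1.08. None of the 10096 and 9825 genes tested passed in the whole-cell tables, where 767 and 380 had an unadjusted p under 0.05, and 0.358% and 0.415% passed in nuclear nascent and nuclear input RNA. In nuclear input RNA, where libraries of the same number varied together, the fit with the replicate number as a block gave SMOX an adjusted p of 0.0045 where 22.2% of all genes passed. For any difference among windows it gave 0.0169 where 13.1% of all genes passed, against 0.551 without the block, where 0.218% passed. As SMOX was tested in this table only through its T0-2 libraries, these blocked values do not support a difference. In nuclear nascent RNA 0.0204% of all genes differed among windows.

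ODC1 and SMS, the first and the last enzyme of synthesis, were also highest at T0-2 in 7 of 8 series each. For whole-cell nascent RNA ODC1 had 64.7 and 81.4 RPKM at T8-10, against 160 and 109 RPKM at T0-2, and in nuclear nascent RNA it had 17.4 and 15.4 RPKM at T8-10, against 37.0 and 23.4 RPKM at T0-2. These groups did not overlap, but the ODC1 differences of -0.86 ± 0.45 (adjusted p = 0.71) and -0.83 ± 0.48 (adjusted p = 0.336) did not pass the test. For SMS in nuclear nascent RNA, 1.62 and 1.78 RPKM at T8-10 stood against 2.12 and 2.19 RPKM at T0-2, a difference of -0.30 ± 0.19 (adjusted p = 0.364). SMS did not overlap in nuclear input RNA either, with a difference of -0.32 ± 0.17 (adjusted p = 0.513). With the replicate number as a block there, limma gave ODC1 a difference of -0.50 ± 0.17 (adjusted p = 0.0589). For SMS it gave -0.32 ± 0.13 (adjusted p = 0.105). Neither passed in that fit, where 22.2% of all genes did.

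SAT1 was lower at T8-10 in nuclear nascent RNA, where the T8-10 and T0-2 values given above did not overlap, at -1.12 ± 0.45 (adjusted p = 0.205). Its difference was 0.14 ± 0.34 in whole-cell nascent RNA (adjusted p = 0.978). SRM ran the other way in nuclear RNA, higher at T8-10 without overlap, by 0.77 ± 0.33 in nuclear nascent (adjusted p = 0.223) and 0.47 ± 0.34 in nuclear input RNA (adjusted p = 0.653). The blocked nuclear input fit put SRM at 0.47 ± 0.26 (adjusted p = 0.209). The whole-cell nascent difference of SRM was -0.58 ± 0.51 (adjusted p = 0.876). AMD1, OAZ2 and AZIN1 had differences between -0.20 and 0.52 in the 4 tables. Of the 8 members, 0 passed in any table without the block, and for differences among all 5 windows 0 passed as well. The median T8-10 minus T0-2 difference of the members ran from -0.33 in whole-cell input to -0.21 in whole-cell nascent RNA, beside medians of all genes of 0.09 and 0.12.

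**Figure D3:**
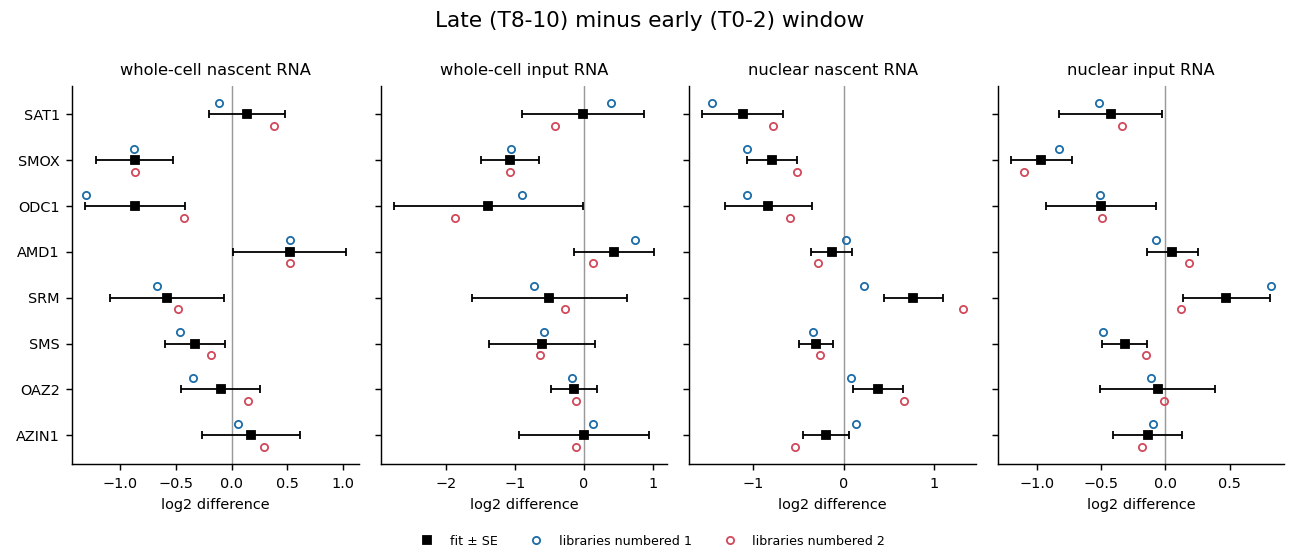
Log2 difference of T8-10 minus T0-2 for the 8 genes in 4 kinds of RNA; black squares with bars are the fit ± SE over 2 and 2 libraries, and open circles the difference within libraries numbered 1 (blue) and 2 (red). SMOX lies at -1.08 to -0.79 with both circles left of 0 in every panel, and SRM lies right of 0 in the 2 nuclear panels.

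The control LNA cells gave a further set of libraries. Synchronised and asynchronous controls stand in tables that were scaled separately, so these levels are set side by side without a test. SAT1 had 15.1 to 53.2 RPKM (median 31.2) in the 8 control libraries of points S0 to S6, against 5.97 and 6.68 RPKM in the 2 asynchronous control libraries. AMD1 had 0.524 to 1.02 RPKM (median 0.736) at the points, against 1.41 and 1.68 RPKM in asynchronous controls. These ranges do not overlap, and SAT1 is higher and AMD1 lower at the points. Genes outside the pathway differed between these settings too. For example, KRT18 had 10.8 to 24.9 RPKM across the LINC00704 knockdown and control libraries of the points. In the asynchronous ones it had 52.5 to 69.9 RPKM. Recovered depth was 11.7 to 23.4 M reads in the former and 27.3 to 42.1 M in the latter. The part of such differences in the member levels was not tested.

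AZIN1 had 0.904 to 1.80 RPKM at the points, against 2.61 and 2.75 RPKM in asynchronous controls, and SMS had 2.42 to 3.83 RPKM against 4.25 and 4.84 RPKM. OAZ2 had 5.85 to 8.11 RPKM at the points, against 4.63 and 4.81 RPKM in asynchronous controls, and SMOX had 0.491 to 1.06 RPKM against 0.284 and 0.333 RPKM. SRM, at 6.97 to 16.9 RPKM, overlapped the asynchronous 10.9 and 10.96 RPKM, and ODC1, at 42.4 to 102 RPKM, overlapped 44.1 and 48.7 RPKM. The overlap of ODC1 came from a single S4 control library. Among the control libraries of the points, that library also held the lowest SAT1, AMD1, AZIN1 and SMS values and the highest SRM value.

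Within the controls, fitted in the table of the LINC00704 knockdown, SAT1 had 36.8 and 53.2 RPKM at S6, against 22.6 and 28.9 RPKM at S0. The groups did not overlap, but the log2 difference of 0.79 ± 0.43 did not pass the test (SE; limma adjusted p = 0.685). Of all genes, 0.0741% passed in this contrast. SMOX had 0.589 and 0.745 RPKM at S0, 0.869 and 1.06 at S2, 0.961 and 0.568 at S4 and 0.491 and 0.494 at S6. It was lowest at S6, with a difference from S0 of -0.30 ± 0.29 (adjusted p = 0.939). Of the 8 members, 0 differed among the control points by the limma F-test, which called 0 of 9442 genes, with 478 at an unadjusted p under 0.05.

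Knockdown of LUCAT1 at points S0 to S6 was the setting in which 2 members passed the test, both higher in the knockdown. AMD1 had 2.27 and 1.09 RPKM in LUCAT1 knockdown cells at S0, against 0.776 and 0.622 RPKM in control cells. At S2 it had 2.09 and 1.25 RPKM in knockdown cells, against 0.598 and 0.696 RPKM in control cells. At S4 AMD1 had 1.10 and 1.35 RPKM in knockdown cells, against 0.524 and 0.854 RPKM in control cells, and at S6 it had 1.05 and 1.47 RPKM, against 0.779 and 1.02 RPKM. Every knockdown library exceeded every control library. AMD1 rose by 0.77 ± 0.16 on the log2 scale (SE, 8 and 8 libraries; limma adjusted p = 0.00702), where the median over all genes was 0.11. It passed without any 1 library (adjusted p 0.00137 to 0.023) and under each of 6 other settings, at 0.49 to 0.87.

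AZIN1 had 3.09 and 1.83 RPKM in LUCAT1 knockdown cells at S0, against 1.4998 and 1.68 RPKM in control cells. At S2 it had 2.93 and 2.56 RPKM in knockdown cells, against 1.39 and 1.58 RPKM in control cells, and at S4 it had 1.89 and 2.49 RPKM, against 0.904 and 1.75 RPKM. At S6 AZIN1 had 1.61 and 2.01 RPKM in knockdown cells, against 1.55 and 1.80 RPKM in control cells, the point at which the groups overlapped. AZIN1 rose by 0.52 ± 0.15 (adjusted p = 0.0238). It no longer passed without any 1 of 6 libraries, with adjusted p from 0.0509 to 0.0578 for these: 1 control library each of S2, S4 and S6 and 1 knockdown library each of S0, S2 and S4. With median scaling its difference was 0.36 (adjusted p = 0.0754).

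The members' share of calls was close to that of the table. Of all 9870 genes, 27.2% were called in this contrast and 19.0% were called higher, beside 2 of the 8 members. Over all genes 1879 were called higher of 2680 called, while median scaling called 895 higher of 2285 and quantile normalization 922 of 2076. The other 6 members had differences from -0.30 ± 0.22 for SRM (adjusted p = 0.321) to 0.27 ± 0.18 for ODC1 (adjusted p = 0.28). SAT1 averaged 31.3 ± 5.98 RPKM in LUCAT1 knockdown cells and 31.1 ± 12.1 RPKM in control cells (SD, n = 8 each). The knockdown effect did not differ among points for any member by the limma F-test, which called 0 genes in each of the 3 tables, with 37, 39 and 110 at an unadjusted p under 0.05 in the LINC00704, LUCAT1 and MIAT tables.

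The other knockdowns at these points, which share the 8 control libraries, called 0 of 8 members. In LINC00704 knockdown cells SRM had 2.61 and 11.4 RPKM at S0, 3.23 and 6.26 at S2, 3.66 and 6.30 at S4 and 5.78 and 5.51 at S6, against 7.43 and 8.07, 8.64 and 11.7, 16.9 and 7.77, and 6.97 and 7.31 RPKM at the same points in control cells. Except at S0, the SRM knockdown values lay below the control values of their point. The difference was -0.78 ± 0.28 (adjusted p = 0.269), and OAZ2 differed by -0.51 ± 0.21 (adjusted p = 0.279). Without the S0 knockdown library at 11.4 RPKM, SRM was at -1.04 and OAZ2 at -0.71, with a single library left in that group. With all libraries kept, 0.0212% of all genes passed in this contrast.

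In MIAT knockdown cells SAT1 had 15.6 and 20.3 RPKM at S0, 17.7 and 31.2 at S2, 14.6 and 30.2 at S4 and 17.1 and 9.41 at S6. Its control values were those given above for S0 and S6, with 20.3 and 33.6 RPKM at S2 and 15.1 and 38.3 at S4. The gap was widest at S6, where SAT1 averaged 13.2 ± 5.41 RPKM in knockdown cells and 45.0 ± 11.6 RPKM in control cells (SD, n = 2 each). The S6 knockdown library at 9.41 RPKM was extreme for other members too. Of the MIAT knockdown and control libraries at the points, it had the lowest ODC1, AMD1, SMS and AZIN1 values and the highest SRM value. Over the 4 points SAT1 differed by -0.66 ± 0.26 (adjusted p = 0.136) and OAZ2 by -0.35 ± 0.13 (adjusted p = 0.112), in a contrast where 7.63% of all genes passed.

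**Figure D4:**
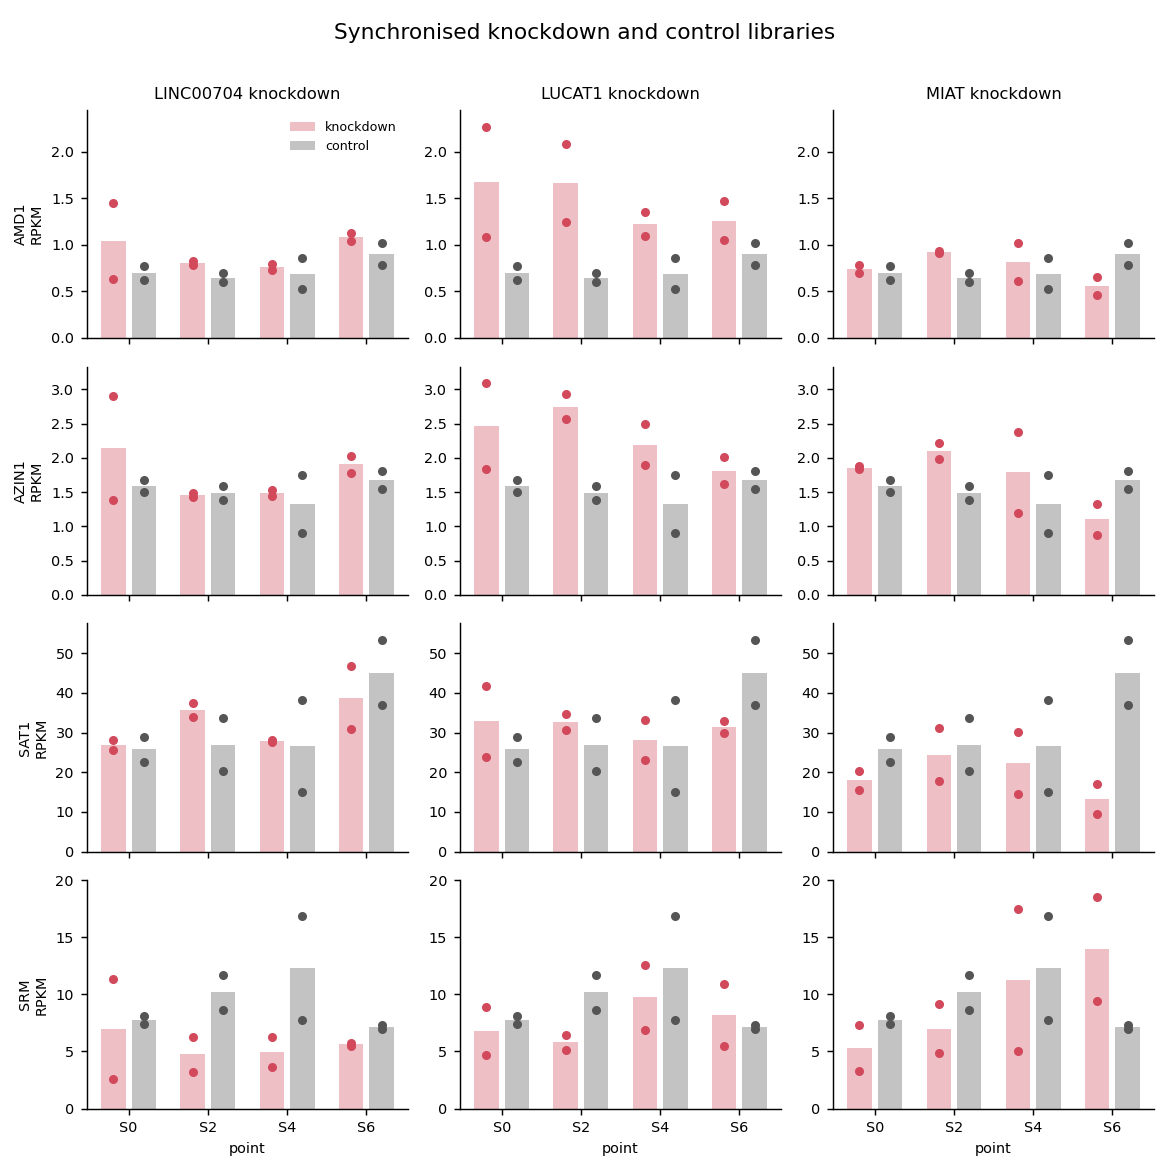
RPKM of AMD1, AZIN1, SAT1 and SRM at points S0, S2, S4 and S6 in knockdown (red, left of each pair) and control libraries (grey), with bars at the mean of 2 libraries and a dot per library; the 3 columns share the same control libraries. All 8 AMD1 values of LUCAT1 knockdown cells, 1.05 to 2.27 RPKM, lie above the control values of 0.524 to 1.02 RPKM.

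In asynchronous cells 3 knockdown libraries per target were compared with the same 2 control libraries. SMOX was under 0.5 RPKM in all of these libraries and was not tested, which left 7 members. Lack of overlap between groups this small says little by itself. OAZ2 had 4.21, 2.97 and 3.16 RPKM in MIAT knockdown cells, against 4.78 and 4.64 RPKM in control cells, without overlap. OAZ2 fell by 0.44 on the log2 scale (a difference of -0.44 ± 0.15; limma adjusted p = 0.0488), where the median of all genes was -0.12. The call was lost without any 1 of 4 of the 5 libraries (adjusted p 0.114 to 0.193). It was also lost with median scaling, where the difference was -0.37 (adjusted p = 0.0692), with quantile normalization at -0.22 (adjusted p = 0.274) and with no filter at -0.44 (adjusted p = 0.0668). In these libraries the summed retinal pigment epithelium markers, 8 of 11 in the table, lay at 139.2 to 151.8 RPKM in MIAT knockdown cells and 161.0 to 186.5 RPKM in control cells, without overlap, and their part in the result was not tested. VIM, KRT18 and KRT8 made up nearly all of that sum. RPE65 had no row, and no other listed marker exceeded 0.689 RPKM. Of all 9200 genes, 43.7% were called and 31.1% called lower, beside 1 of 7 members. Over all genes 2861 were called lower of 4016 called, while quantile normalization called 1701 lower of 3059.

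SRM in the same MIAT knockdown libraries had 9.82, 7.81 and 6.59 RPKM, against 10.9 and 10.97 RPKM in control cells, and differed by -0.44 ± 0.16 (adjusted p = 0.0626). Without the knockdown library at 9.82 RPKM it passed, at -0.59 (adjusted p = 0.00675), but the share of all genes passing without that library was not computed. In LINC00704 knockdown cells SRM had 8.20, 7.59 and 5.86 RPKM, against 10.96 and 10.9 RPKM in control cells, a difference of -0.60 ± 0.19 (adjusted p = 0.271). OAZ2 had 3.79, 2.67 and 3.30 RPKM in LINC00704 knockdown cells, against 4.81 and 4.63 RPKM in control cells, and differed by -0.52 ± 0.19 (adjusted p = 0.326). Neither overlapped, and neither passed in a table where 0.0557% of all genes did. SAT1 had 7.12, 8.55 and 8.99 RPKM in LINC00704 knockdown cells, against 5.97 and 6.68 RPKM in control cells, apart as well, at 0.36 ± 0.17 (adjusted p = 0.47).

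In LUCAT1 knockdown cells, SMS had 3.31, 3.42 and 2.71 RPKM, against 4.38 and 5.03 RPKM in control cells, a difference of -0.55 ± 0.19 (adjusted p = 0.184). SAT1 had 7.42, 15.3 and 11.8 RPKM in LUCAT1 knockdown cells, against 6.16 and 6.94 RPKM in control cells, a difference of 0.73 ± 0.31 (adjusted p = 0.236). Both groups were apart, but 0 of the 7 members passed, and 0.209% of all genes did. The summed markers of retinal pigment epithelium were apart too, at 72.7 to 141.6 RPKM in LUCAT1 knockdown cells and 167.0 to 193.2 RPKM in control cells, and their part was not tested. VIM, KRT18 and KRT8 made up nearly all of that sum. RPE65 had no row, and no other listed marker exceeded 0.565 RPKM. Without the knockdown library at 7.42 RPKM, SAT1 was at 1.01 (adjusted p = 0.00408) and SMS at -0.58 (adjusted p = 0.0257). That library was the knockdown library nearest the controls for SAT1. The share of all genes passing without it was not computed, so these values are not read as a result about the members. AMD1 and AZIN1, called in LUCAT1 knockdown cells at points S0 to S6, differed here by 0.08 ± 0.24 (adjusted p = 0.855) and -0.16 ± 0.24 (adjusted p = 0.703), and the difference between the 2 settings was not tested.

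**Figure D5:**
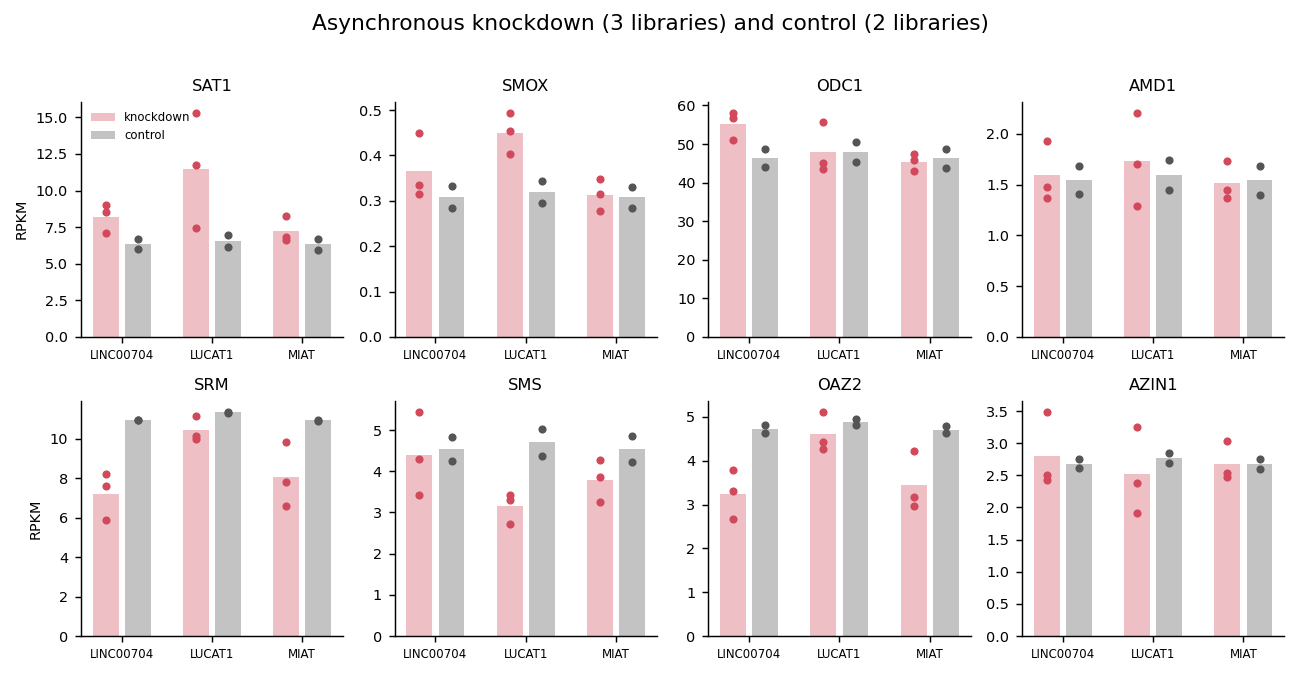
RPKM of the 8 genes in asynchronous knockdown (red, 3 libraries) and control cells (grey, 2 libraries) for the 3 targets, with bars at the mean and a dot per library; each panel has its own axis from 0. OAZ2 and SRM knockdown values lie below the controls for LINC00704 and MIAT, and SMS knockdown values below them for LUCAT1.

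The wider pathway was read from 32 further genes that supply ornithine and S-adenosylmethionine, recycle methylthioadenosine, transport polyamines or use them. Of the 32 genes, 19 or 20 passed the filter in each table. Between windows and asynchronous cells 0 passed in any of the 4 tables, with 2, 3, 4 and 3 at an unadjusted p under 0.05 in whole-cell nascent, whole-cell input, nuclear nascent and nuclear input RNA. The blocked fit of nuclear input RNA called 8 of 19 pathway genes, 1 higher and 7 lower, where 34.4% of all genes were called. Over all 9633 genes it called 1575 higher and 1739 lower. ALDH18A1, which makes the precursor of proline and ornithine, was at -0.85 ± 0.14 (adjusted p = 0.00216), EIF5A at -0.85 ± 0.17 (adjusted p = 0.00518), AHCY at -0.77 ± 0.12 (adjusted p = 0.00142) and MAT2A, the S-adenosylmethionine synthase, at -0.70 ± 0.13 (adjusted p = 0.00395). DHPS was called as well, at -0.32 ± 0.08 (adjusted p = 0.0153), while DOHH, at -0.53 ± 0.20 (adjusted p = 0.064), and PAOX, an oxidase of acetylated polyamines, at 0.21 ± 0.10 (adjusted p = 0.147), were not.

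Between T8-10 and T0-2 the unblocked fits called 0 pathway genes in each of the 4 tables. The blocked nuclear input fit called 5 of 19, beside 22.2% of all genes: MAT2A rose by 0.80 ± 0.17 (adjusted p = 0.0142), MAT2B by 0.66 ± 0.11 (adjusted p = 0.00524), the glypican GPC1 by 0.46 ± 0.14 (adjusted p = 0.0448) and DHPS by 0.40 ± 0.10 (adjusted p = 0.0277), and the arginine transporter SLC7A1 had a difference of -0.54 ± 0.13 (adjusted p = 0.0228). Over all genes this fit called 1492 higher and 650 lower at T8-10. For differences among the 5 windows the blocked fit called 2 of 19 pathway genes, beside 13.1% of all genes. These were MAT2A (adjusted p = 0.026) and MAT2B (adjusted p = 0.0189).

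LUCAT1 knockdown at points S0 to S6 called 5 of 19 pathway genes, 2 higher and 3 lower, beside 27.2% of all genes. MAT2A, whose product is the substrate of AMD1, rose by 0.80 ± 0.19 (adjusted p = 0.0114), and ENOPH1 of methylthioadenosine recycling by 0.45 ± 0.12 (adjusted p = 0.0196). GPC1, a proteoglycan linked to polyamine uptake, was lower at -0.90 ± 0.24 (adjusted p = 0.02), EIF5A at -0.84 ± 0.29 (adjusted p = 0.0475) and ALDH18A1 at -0.53 ± 0.16 (adjusted p = 0.0292). DHPS at -0.30 ± 0.14 (adjusted p = 0.123), DOHH at 0.32 ± 0.32 (adjusted p = 0.46) and PAOX at -0.07 ± 0.13 (adjusted p = 0.708) did not pass. The 5 kept their signs under quantile normalization and median scaling, but ENOPH1 missed the threshold under both (adjusted p = 0.0542 and 0.0657) and EIF5A under the first (adjusted p = 0.0691). Only these 5 of the list were followed under the scalings, which called 2076 and 2285 of all 9870 genes.

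MIAT knockdown in asynchronous cells called 13 of 20 pathway genes, 3 higher and 10 lower, beside 43.7% of all genes. Hypusine genes were called in both directions. EIF5A2, a second hypusinated factor, rose by 0.43 ± 0.12 (adjusted p = 0.0249) and stayed called under quantile normalization and median scaling, at 0.47 and 0.50. Lower were DOHH at -0.95 ± 0.11 (adjusted p = 0.00121), DHPS at -0.51 ± 0.10 (adjusted p = 0.00616) and EIF5A at -0.51 ± 0.14 (adjusted p = 0.0253). GPC1 was at -0.81 ± 0.22 (adjusted p = 0.0232), PAOX at -0.62 ± 0.14 (adjusted p = 0.013) and AHCY, which clears S-adenosylhomocysteine, at -0.61 ± 0.09 (adjusted p = 0.00326). Only these 13 were followed under the 2 scalings, so a share of the whole list is not given there. The 13 kept their signs, with 12 called under median scaling, which called 3899 of all 9200 genes. Quantile normalization called 8 of the 13 and 3059 of all genes. DHPS (adjusted p = 0.0929), EIF5A (adjusted p = 0.395) and GPC1 (adjusted p = 0.112) were among those that missed the threshold there. The list's median was -0.24, beside -0.12 for all genes. The other 4 knockdown comparisons called 0 pathway genes, and EIF5A had its lowest difference there in MIAT knockdown cells at points S0 to S6, at -1.09 ± 0.33 (adjusted p = 0.0642).

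Profiles over the 24 group means of the 4 kinds of RNA were compared with those of 8491 genes tested in all 4 tables, by the root mean square difference after centring within each table. Nearest to SAT1 were AL365356.5 at 0.31 (log2), the glycolytic enzyme gene PGK1 at 0.35 and CPA4 at 0.35, beside a median of 0.79 over all genes. Nearest to ODC1 were the transcription factor genes JUN at 0.15 and ETS2 at 0.17 and the mitochondrial folate enzyme gene MTHFD2 at 0.17, beside a median of 0.42. Nearest to AMD1 were DNAJC13 at 0.089, IPO8 at 0.095 and RPAP3 at 0.097, beside a median of 0.26. A gene flat in every table would lie at 0.76 from SAT1, 0.35 from ODC1 and 0.17 from AMD1, below the median each time. These values describe likeness over groups that share libraries and scaling.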

How the data were processed

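The authors deposited 10 tables of RPKM, per the file headers, with 1 column per library, 91 of the 96 samples; the 5 chromatin samples were not analysed here. The authors' log2 fold changes and p-values, per the file headers, and their group means were not used. The submitters' processing notes name HOMER 4.10.3, STAR 2.5.3, edgeR without a version, featureCounts 1.6.1 and, for 85 samples, Bowtie2 2.3.4.3, with hg38. Near-identical copies of ODC1, AMD1 and EIF5A exist in the genome, and the sources used here do not give how reads with several matches were counted, so their values are uncertain to that extent.

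Tests were made with limma 3.58.1 in R 4.3.3 after adding a pseudocount of 0.25 RPKM and taking log2. A gene was tested where 2 or more libraries reached 0.5 RPKM. The fit used limma's intensity trend, and p-values had the Benjamini-Hochberg adjustment over all genes of the table. An adjusted p under 0.05 was called. The share of all genes whose groups do not overlap was not computed. Fold changes on this scale understate changes of low genes. Each table was fitted alone, with windows as the mean of 5 group means and knockdowns as the mean over 4 points. The fits were tested on simulated data. Whole reads were recovered from RPKM and length (100% of values up to 200 reads whole within 0.05 of a read), and give depth only; no count test was run on them. Columns of knockdown libraries at points S0 to S6 carry other replicate numbers than the titles and were assigned by group. Libraries of the same number deviated together in nuclear input RNA (r 0.63 to 0.86 over 15 pairs of groups), from which the pairing there was taken, and for that table the blocked value is given where it changes a call. Members and gene lists were chosen with earlier results of these data known. The text names all members, up to 4 called pathway genes with the largest difference per comparison, EIF5A, DHPS, DOHH and PAOX, and the 3 nearest profiles of SAT1, ODC1 and AMD1. ENOPH1, EIF5A2 and other pathway genes that the blocked fits called were named after their values were seen. Alternatives were 2 other pseudocounts (0.1 and 1), no filter or one at 1 RPKM, quantile and median scaling, the replicate block and each library left out. Figures used Python 3.11.15 and matplotlib 3.10.9.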

Additional observations from a re-analysis of the deposited data

Results flagged for a closer look

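For 6 results, every window library with one replicate number lay on one side of the asynchronous library of that number and every one with the other number on the opposite side. The difference between numbers was not tested. In whole-cell input RNA the log2 difference of windows minus asynchronous cells was 0.87 within libraries numbered 1 and -1.89 within those numbered 2 for ODC1, 0.27 and -0.89 for AMD1, and 0.74 and -0.97 for SMS. AZIN1 was at 0.81 and -1.08, and SRM, with the signs turned, at -2.31 and 0.51. In whole-cell nascent RNA OAZ2 was at 0.34 and -0.55.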

How the results depend on the processing

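No result changed direction past its threshold under any setting run. With the replicate block, nuclear input RNA gave 1 called member (SMOX) both for T8-10 minus T0-2 and among windows, and 8 pathway genes between windows and asynchronous cells; quantile normalization also gave 1 member for T8-10 minus T0-2 (SMOX, adjusted p = 0.0432). SMOX passed the filter there only through its T0-2 libraries, so these SMOX values support nothing. Pseudocount 1, no filter and median scaling each gave 1 pathway gene there. For MIAT knockdown in asynchronous cells no filter, median scaling and the replicate block each gave 0 called members, and for LUCAT1 knockdown at points S0 to S6 median scaling gave 1; the causes were not tested. Quantile normalization called ODC1 in LUCAT1 knockdown (0.53, adjusted p = 0.0407) in place of AZIN1 (adjusted p = 0.0617), and in asynchronous MIAT knockdown SAT1 (0.47, adjusted p = 0.0254) in place of OAZ2 (adjusted p = 0.274); the replicate block put OAZ2 at -0.39 (adjusted p = 0.0822). Leaving out 1 library gave 0 to 2 called members for asynchronous MIAT and LUCAT1 knockdown and for LINC00704 knockdown at the points, 1 to 2 for LUCAT1 knockdown at the points, and 0 to 1 pathway genes in both nuclear tables (1 without a T8-10 library of nuclear input or a T4-6 library of nuclear nascent RNA). For SAT1, windows minus asynchronous ran from 1.55 to 2.72 in nuclear nascent RNA. Over all genes the replicate block called 3314 for windows minus asynchronous cells, against 440 without it, and 2142 for T8-10 minus T0-2, against 40, in nuclear input RNA. For windows minus asynchronous cells it called 278, against 41, in whole-cell nascent and 191, against 3, in whole-cell input RNA, and for asynchronous knockdown of LINC00704 and LUCAT1 153 and 482, against 5 and 20. For windows minus asynchronous cells the other settings called 20 to 94 genes from whole-cell nascent RNA, from nuclear nascent RNA 229 to 464, and from nuclear input RNA 328 to 1289, and 469 to 1577 for MIAT knockdown at the points, against 727. Where an arm kept 1 library, it was assumed to vary like the other groups. Calls over all genes were not counted for the fits with a library left out. For the synchronised knockdowns no blocked fit was made, as their columns carry numbers that do not match their titles. In whole-cell nascent, whole-cell input and nuclear nascent RNA same-numbered libraries did not all vary together, and the block changed no call of a member there. Control libraries fitted alone, an alternative chosen after seeing the data, called 0 members. With 2 libraries a group, small differences were not detectable, most of all in whole-cell input RNA.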
